A study of Mus musculus with 12 samples.

Results

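The 10 apolipoprotein genes described here, Apob, Apoa1, Apoa2, Apoa4, Apoa5, Apoc1, Apoc3, Apoe, Apoh and Apom, were found by gene symbol among the 10607 genes of the deposited table of translation efficiency (TE), the ratio of ribosome-protected fragments (RPF) to input RNA of the same liver. All 10 were measured in all 12 libraries. The libraries came from the livers of 3 wild-type (WT) mice and 3 Mettl5 knockout (KO) mice, with 1 input and 1 RPF library per mouse, and WT and KO mice of the same number were littermates, so there were 3 litters. The KO mice lacked exon 2 of Mettl5 in the whole body, after a floxed allele made in C57bl/6 x 129S6 hybrid ES cells and backcrossed to B6 was recombined by CMV-Cre, a ubiquitous deleter, so every cell type of the liver carried the deletion. All 12 libraries came from snap-frozen tissue lysed with cycloheximide, and RPF were monosome fragments after MNase digestion. METTL5 is the methyltransferase that places m6A on 18S rRNA of the small ribosomal subunit, and the comparisons below ask how much of the RNA and of the ribosome occupancy of each apolipoprotein changed with its loss.

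Apolipoproteins are the protein parts of lipoproteins, the particles that carry cholesterol and triglycerides in plasma. In the liver, apolipoprotein B is lipidated in the endoplasmic reticulum to form very low density lipoprotein, whereas ApoA1 and ApoA2 are the main proteins of high density lipoprotein. ApoC1, ApoC3, ApoA4 and ApoA5 move between particles and modulate lipases and receptors, and ApoE is the ligand by which remnants are taken up. ApoH, or beta-2-glycoprotein I, binds phospholipid surfaces, and ApoM carries sphingosine 1-phosphate on high density lipoprotein.

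Translation of each of these mRNAs starts at a codon whose surroundings are shown because the ribosome is the object of the perturbation. The 18 bases around the start codon of the principal transcript (GENCODE vM21, GRCm38/mm10, mRNA strand, 5′ to 3′) hold the start codon in capitals, preceded by 12 bases of 5′ UTR:
Apob: catccatccgccATGggc
Apoa1: acacccttcaggATGaaa
Apoa2: tagtctgccatcATGaag
Apoa4: gaggagcccaggATGttc
Apoa5: atcgtggaaagcATGgct
Apoc1: cctccaaccaggATGagg
Apoc3: tacgtaggtgccATGcag
Apoe: acaattgcgaagATGaag
Apoh: gacgcatccgcaATGgtt
Apom: tctcatcccgagATGttc

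A purine at position -3, counted back from the A of the start codon, was present in 10 of 10 members and in 87.3% of 8801 genes with such a window. A G at position +4 was present in 3 of the 10, Apob, Apoa5 and Apoh, against 53.5% of the same genes. The start codons lie at chr12:7977779-7977781 (+, exon 1) for Apob, chr9:46228957-46228959 (+, exon 2) for Apoa1, chr1:171225315-171225317 (+, exon 2) for Apoa2, chr9:46241154-46241156 (+, exon 1) for Apoa4 and chr9:46269098-46269100 (+, exon 2) for Apoa5. They lie at chr7:19692466-19692468 (-, exon 1) for Apoc1, chr9:46234711-46234713 (-, exon 2) for Apoc3, chr7:19698228-19698230 (-, exon 2) for Apoe, chr11:108395344-108395346 (+, exon 1) for Apoh and chr17:35131721-35131723 (-, exon 1) for Apom. Apoa1, Apoc3, Apoa4 and Apoa5 form a cluster of 43.3 kb on chromosome 9, and Apoc1 and Apoe lie within 9.71 kb on chromosome 7.

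The coding sequence (CDS) of Apob has 13515 bases, longer than that of 99.7% of the 8986 tested genes with a CDS, and a GC content of 43.4%. The other 9 members have between 264 bases (Apoc1) and 1185 bases (Apoa4), with GC contents from 49.6% (Apoh) to 62.6% (Apoe). Apob is also the classic substrate of C-to-U RNA editing, which turns a glutamine codon of the mRNA into a stop codon and yields the short form ApoB48, and in the mouse, unlike in humans, this takes place in liver. The edited codon is codon 2179 of 4505, in exon 26, and 48.3% of the CDS lies before it. The following 30 bases at chr12:8008042-8008071 (+, mm10, genomic sequence) are shown because they mark where the short form ends, with the edited codon in capitals and, downstream of it, the mooring motif TGATCAGTA, to which the editing complex binds:
Apob editing site: acatacgcgataCAAtttgatcagtatatt

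The motif, searched on the mRNA strand only because editing acts on RNA, was found 1 time in the Apob CDS, and 0.556% of the 8986 searched CDS hold it. Cut into 561979 windows of 30 bases without overlap, 0.00516% of windows hold it, and motifs across a border were not counted. Edited and unedited transcripts were not told apart in the deposited values, so the sum of both is reported as Apob.

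Values are given as normalized reads, that is, reads of a gene divided by a single factor per library, without gene length. Input libraries held 8326325 to 11825643 counts over all genes, of which 45.8% to 63.8% fell on 18S rRNA, and the RPF columns of the table held 4623826 to 9184242 reads. The members drew between 223 reads (Apoa4, input) and 203286 reads (Apoe, RPF) per library, so the lowest value rested on 223 reads. Mettl5 itself had 38.5, 28.2 and 15.7 normalized input reads in WT mice 1 to 3 and 8.55, 9.30 and 7.995 in KO mice 1 to 3, and 58.4, 47.8 and 53.1 RPF against 8.34, 5.53 and 9.56, in the direction of the labels in all 3 litters. The log2 change of Mettl5 was -1.59 ± 0.46 in input (SE, adjusted p = 0.9986, edgeR) and -2.64 ± 0.36 in RPF (adjusted p = 0.00504, limma). All 8 hepatocyte markers were measured, no marker of any list was at 0 in every input library, and the summed input level of each of the Kupffer cell, endothelial, stellate, cholangiocyte and erythroid lists was at most 0.682% of the lowest hepatocyte sum. In such bulk samples fewer cells of a type and less RNA per cell cannot be told apart.

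Without the gene Lars2, which alone took 7.36% to 8.63% of input counts, the 10 members held 5.45% ± 0.27 (SD, n = 3) of normalized input reads in WT and 5.26% ± 0.28 (SD, n = 3) in KO, and 6.27% ± 0.21 of RPF in WT and 6.31% ± 0.48 in KO. The share of reads on apolipoproteins as a whole thus differed between the genotypes by less than the spread between mice.

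**Figure D1:**
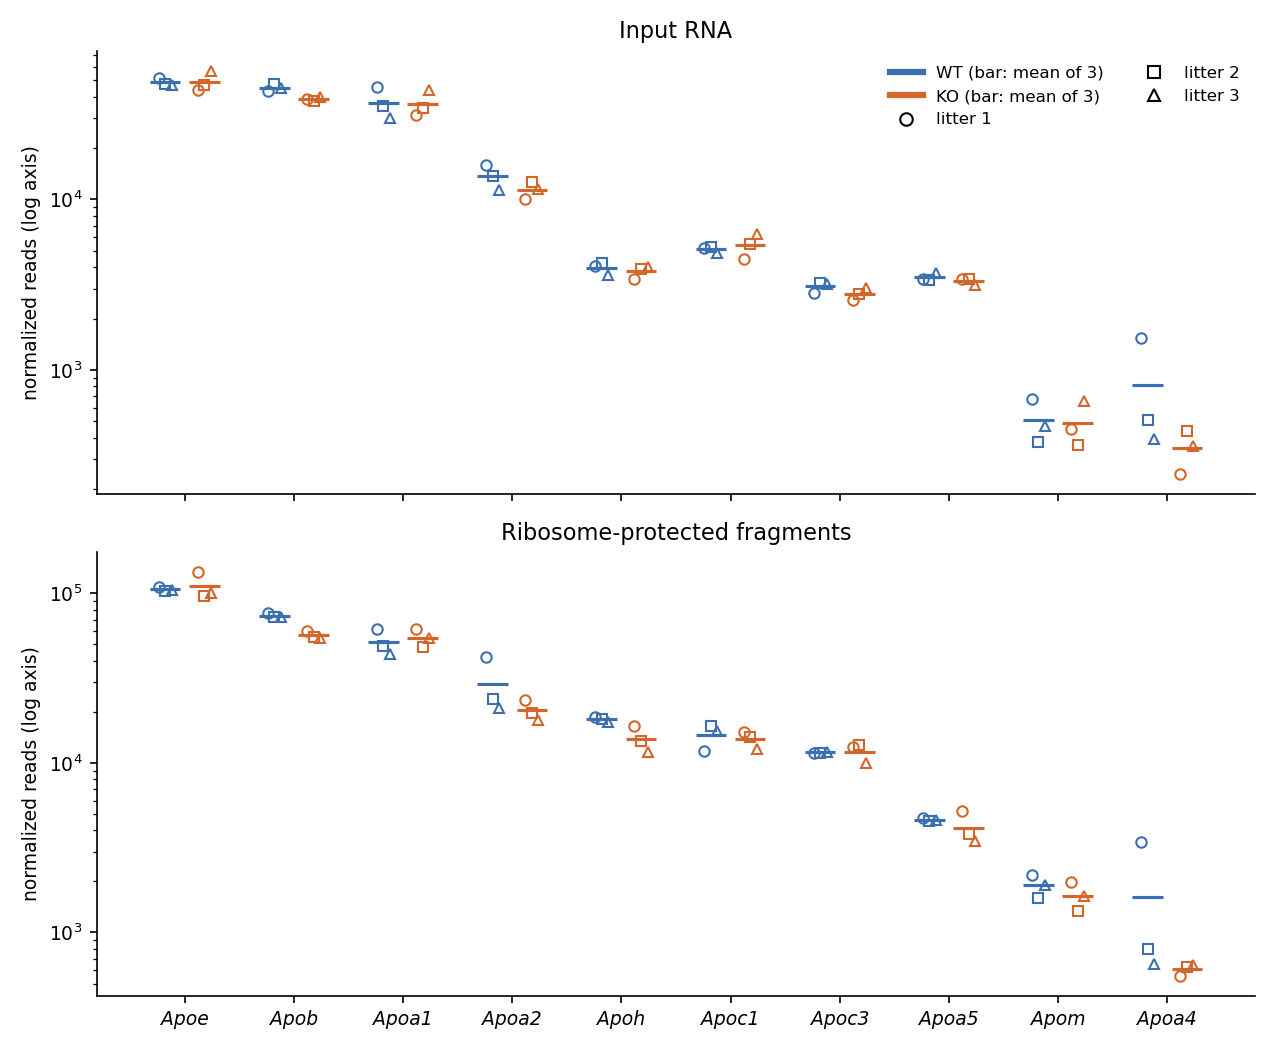
Normalized reads (log axis) of the 10 members in input (top) and RPF (bottom) for each of 3 WT (blue) and 3 KO (orange) mice, with litters as symbols and bars at the mean of 3. Apob RPF lie at 72606 to 76133 in WT and at 54402 to 59961 in KO without overlap, and WT mouse 1 stands apart for Apoa4.

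In WT liver the members spanned a wide range of RNA levels. Per kb of exon, Apoa1 had 29824 ± 6296 normalized input reads (SD, n = 3), followed by Apoa2 with 25524 ± 4322 and Apoe with 22700 ± 1113, and the ranges of neighbours among these 3 overlapped. Apoc1 followed at 6841 ± 295, clear of both neighbours. Apob at 3241 ± 154 and Apoc3 at 3043 ± 230 overlapped, Apoh at 2495 ± 207 and Apoa5 at 1383 ± 66 each stood clear of the next, and Apom at 501 ± 147 and Apoa4 at 450 ± 351 were lowest and overlapped.

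Ordered by RPF per kb of CDS, a measure of ribosomes per length of message summed over all copies, Apoe came first with 113262 ± 2774 normalized reads in WT. Apoa2 at 94959 ± 37302, Apoa1 at 65275 ± 11693 and Apoc1 at 55161 ± 9342 followed, each overlapping its neighbour. Apoc3 at 38849 ± 265, Apoh at 17449 ± 507, Apob at 5468 ± 144 and Apoa5 at 4178 ± 91 stood apart from each other, before Apom at 3330 ± 509 and Apoa4 at 1370 ± 1321, which overlapped. Apob ranked 5 of 10 in input per kb of exon and 7 of 10 in RPF per kb of CDS. Values per kb of CDS take RPF as counted over the CDS, which the sources used here do not state.

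Baseline TE in WT was tested as RPF against input after each library was centred on its median gene, with limma and Benjamini-Hochberg adjustment over 8994 genes. On this scale the median over all genes was 0.22 (log2). All 10 members lay above that median, and 9 of 10 were called higher, beside 35.4% of all genes. The median of the members was 1.21. Apoh had the highest value, 2.32 ± 0.14 (SE), a 4.98-fold ratio above that of the library medians and above 99.3% of genes. Its RPF to input ratios were 4.55, 4.27 and 4.85 in the 3 WT mice, and the mice lay close together.

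Apom, the sphingolipid carrier, had a log2 TE of 2.06 ± 0.24 and Apoc3, an inhibitor of triglyceride clearance, 2.04 ± 0.13, above 98.4% and 98.3% of genes. Apoc1 followed at 1.63 ± 0.16. Apoe was at 1.25 ± 0.15 and Apoa2 at 1.16 ± 0.21. These 6 members had adjusted p-values of 0.000204 or less (limma).

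Apob had a log2 TE of 0.84 ± 0.12, above 74.1% of genes, with an adjusted p of 8.3e-06 (limma). Apoa1, the main protein of high density lipoprotein, was at 0.63 ± 0.17, and Apoa5, an activator of lipoprotein lipase, at 0.54 ± 0.15. Measured from the median TE of all genes instead, Apoa1 (0.41, adjusted p = 0.0522, limma) and Apoa5 (0.32, adjusted p = 0.0688, limma) were no longer called, and 7 of 10 members were called higher beside 28.2% of genes. Apoa4, which is made mostly in intestine, was at 0.97 ± 0.69 and was not called (adjusted p = 0.262, limma). Its RPF to input ratios were 2.22, 1.56 and 1.65 in WT, all above the median ratio of 1.05 to 1.07 over genes, and with each mouse's RPF set against its own input the adjusted p was 0.0042 (limma).

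The normalized values carry no length, and the members have compact messages: the CDS made up a median of 56.6% of exon length in the members and of 33.4% in the tested genes. Expressed per kb of CDS over per kb of exon, the median of the members was 0.46 (log2) beside 0.03 for all genes, 5 of 10 members were called higher beside 32.9% of genes, and 2 of 10 were called lower beside 28.6%. Apoc3 (2.06 ± 0.13), Apoc1 (1.38 ± 0.16), Apoh (1.19 ± 0.14), Apom (1.14 ± 0.24) and Apoe (0.70 ± 0.14) were called higher. Apoa2 (0.22), Apoa5 (-0.02) and Apoa4 (-0.17) were not called. Like the order by RPF above, TE per kb takes RPF as counted over the CDS, which is not given.

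Per kb, Apob was called lower, at -0.87 ± 0.11 (SE, adjusted p = 7.3e-06, limma), above 21.7% of genes, and so was Apoa1, at -0.48 ± 0.18 (adjusted p = 0.0318, limma). The exon length used here joins all annotated isoforms, which for Apob has the same 13934 bases as its principal transcript. With principal transcript lengths for all genes, so that lengths of other genes changed and that of Apob did not, Apob was at -0.25 (adjusted p = 0.0592, limma) and Apoa1 at -0.12 (adjusted p = 0.595, limma), and neither was called. Taking only the part of the Apob CDS before the edited codon shown above as its length gave 0.18 ± 0.11 (adjusted p = 0.148, limma). All Apob RPF stayed in that value, also any past the edited codon, so its shift follows from the shorter length alone. The place of Apob among genes thus depended both on the lengths taken for other genes and on the length taken for its own CDS. The extent of editing in these livers was not tested.

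**Figure D2:**
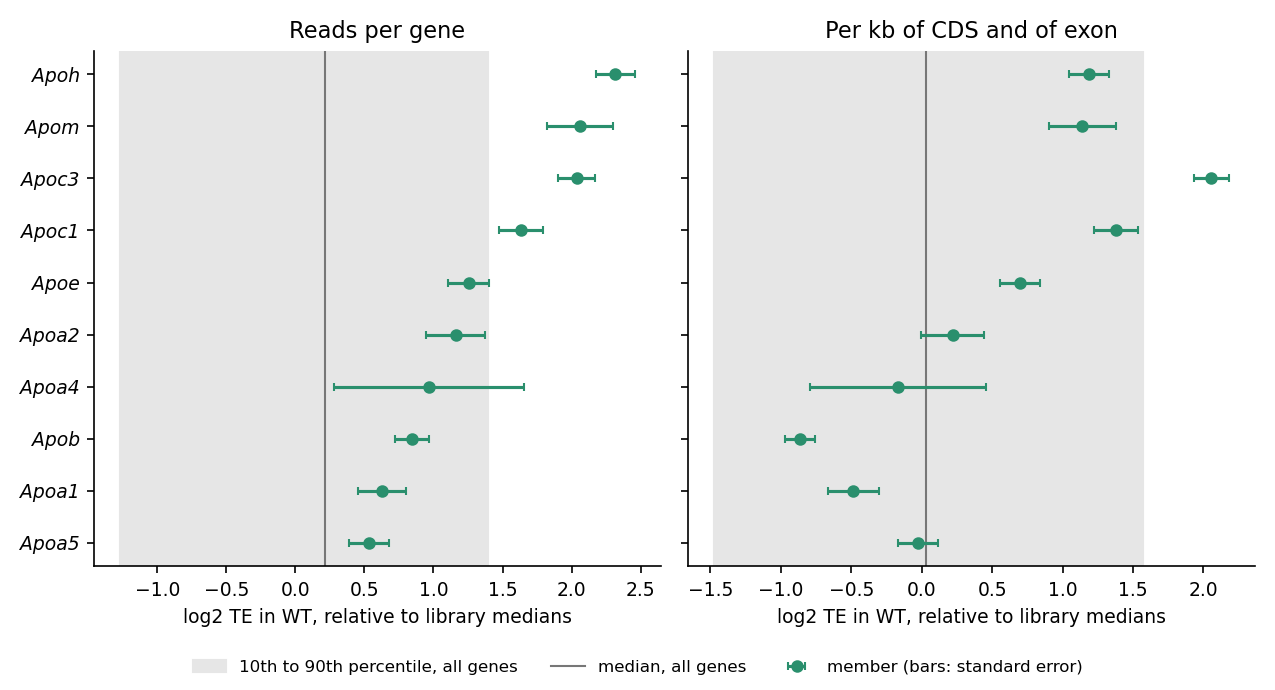
Log2 TE of each member in WT relative to the library medians (points, with bars for the standard error), from reads per gene (left) and per kb of CDS and of exon (right), over the range of all genes (grey: 10th to 90th percentile, line: median). With length, Apoc3 has the highest value at 2.06 and Apob moves from 0.84 to -0.87.

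In KO liver 9 of 10 members were called higher in baseline TE, beside 34% of genes, with Apoc3 at 2.18, Apoh at 1.98 and Apom at 1.90. Input and RPF were then compared between KO and WT for each member. No member was called in input (edgeR, 0 of 10 beside 0% of 10057 genes), in RPF (limma, 0 of 10 beside 0.489% of 8994 genes) or in TE (limma, 0 of 10 beside 0% of 8994 genes). At an unadjusted p under 0.05 there were 0 members in input, 2 in RPF and 0 in TE, and 348, 1205 and 423 of all genes (3.46%, 13.4% and 4.70%). DESeq2 on the input counts and edgeR on whole reads for RPF and TE also called 0 members. The median log2 change of the members was -0.05 in input, -0.19 in RPF and -0.12 in TE, beside 0.00, -0.03 and -0.01 over all genes.

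**Figure D3:**
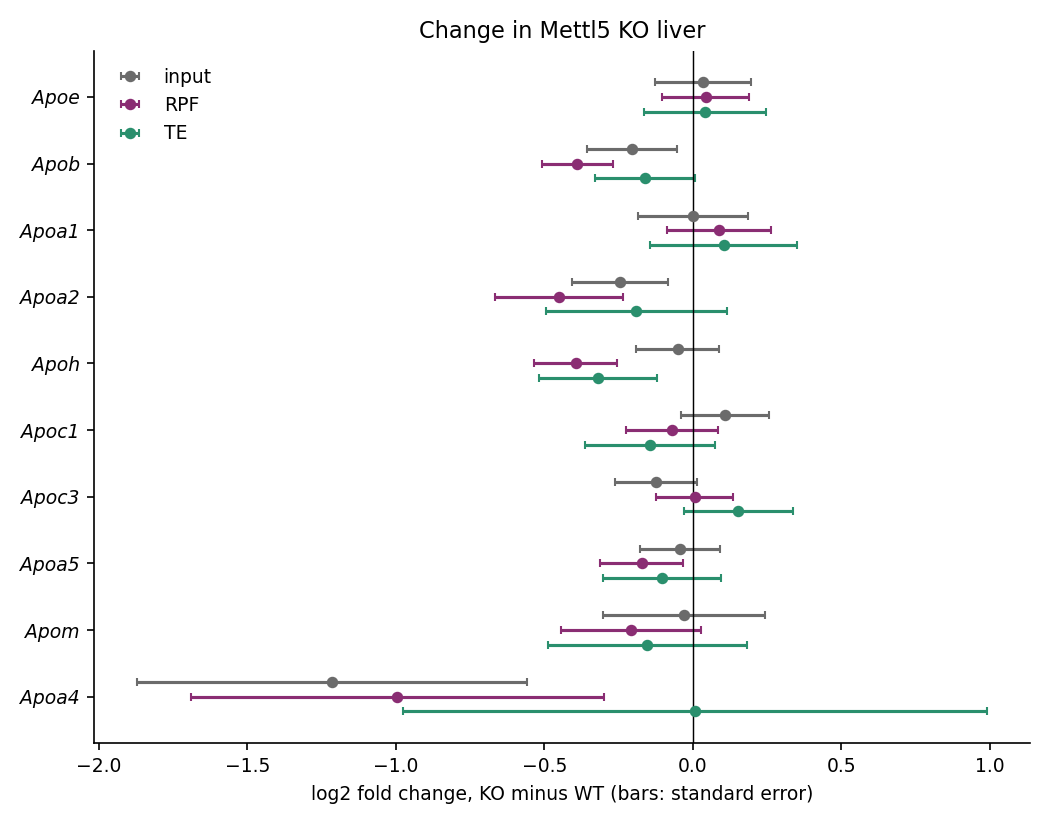
Log2 fold change (KO minus WT) of each member in input (edgeR), RPF and TE (limma), with bars for the standard error. Apob, Apoh and Apoa2 have RPF changes of -0.39, -0.39 and -0.45, Apoe, Apoa1 and Apoc3 lie near 0, and Apoa4 has the widest bars.

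Apob, the structural protein of very low density lipoprotein, was lower in KO in both assays. Its RPF were 76133, 72947 and 72606 normalized reads in WT mice and 59961, 55007 and 54402 in KO mice. Its input was 43019, 47313 and 45162 in WT and 38562, 37462 and 39544 in KO. The KO values lay below every WT value in both assays, as they did for 1.56% of genes.

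The RPF change of Apob was -0.39 ± 0.12 (log2, SE), a KO to WT ratio of 0.763, with an adjusted p of 0.145 (limma). With the litter as a block, a term shared by input and RPF, the change was the same and the adjusted p was 0.0474 (limma). Such a call was made for 3.26% of genes in that fit. The input change was -0.20 ± 0.15 (adjusted p = 0.9986, edgeR), and the RPF to input ratio was 1.77, 1.54 and 1.61 in WT and 1.56, 1.47 and 1.38 in KO. The ratio was lower in KO in 3 of 3 litters with overlapping ranges, and the TE change was -0.16 ± 0.17 (adjusted p = 0.998, limma, 95% interval -0.51 to 0.19).

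Apoh, the phospholipid-binding beta-2-glycoprotein I, had 18556, 18113 and 17511 RPF in WT and 16565, 13411 and 11664 in KO, without overlap. Its input did not separate the genotypes, with 4080, 4244 and 3608 in WT and 3408, 3905 and 4017 in KO. The RPF change was -0.39 ± 0.14 (adjusted p = 0.215, limma) and the input change -0.05 ± 0.14 (adjusted p = 0.9986, edgeR). Without KO mouse 1 the RPF change was -0.53 and passed (adjusted p = 0.0393, limma), as did 2.52% of genes, whereas without KO mouse 3 it was -0.28 (adjusted p = 0.675, limma). The TE change, -0.32 ± 0.20, had the lowest value of the 10 members but did not pass (adjusted p = 0.998, limma), and the ratio was lower in KO in 2 of 3 litters. The TE change was -0.53 without KO mouse 1 and -0.16 without KO mouse 3.

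Apoa2, the second protein of high density lipoprotein, was uneven among WT mice. Its RPF were 42142, 23887 and 21143 in WT and 23564, 19780 and 17864 in KO, lower in KO in 3 of 3 litters but overlapping. The RPF change was -0.45 ± 0.22 (adjusted p = 0.378, limma) and -0.15 without WT mouse 1. In input, Apoa2 had 15984, 13789 and 11345 in WT and 9982, 12635 and 11532 in KO.

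Apoa4 had the largest fold difference and the largest spread. Its input was 1548, 508 and 393 normalized reads in WT and 245, 437 and 357 in KO, and its RPF were 3429, 794 and 648 in WT and 557, 623 and 639 in KO. WT mouse 1 was 3.94-fold above the lowest WT mouse in input and 5.29-fold in RPF, spreads wider than those of 98.2% and 99.6% of genes, and the other two WT mice lay near the KO mice. The log2 changes were -1.22 ± 0.66 in input (adjusted p = 0.9986, edgeR) and -0.996 ± 0.70 in RPF (adjusted p = 0.584, limma). Without WT mouse 1 the input change was -0.36 (adjusted p = 0.9995, edgeR) and the RPF change -0.24 (adjusted p = 0.717, limma). The TE change was 0.01 ± 0.98, with a 95% interval of -2.25 to 2.26.

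Apoe, the remnant ligand, and Apoa1 did not separate the genotypes. Apoe RPF were 108574, 103600 and 104846 in WT and 132933, 96741 and 100292 in KO, with a change of 0.04 ± 0.15 (95% interval -0.26 to 0.35). Apoa1 RPF were 61987, 49076 and 44031 in WT and 61243, 48019 and 54732 in KO, with a change of 0.09 ± 0.17 (95% interval -0.28 to 0.45). KO mouse 1 was highest of the KO mice for both.

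Apoc3 RPF were nearly equal among WT mice, 11476, 11512 and 11627, and lay at 12341, 12681 and 9935 in KO, on both sides of WT. Its RPF change was 0.01 ± 0.13 (95% interval -0.27 to 0.28), and its input change was -0.12 ± 0.14, lower in KO in 3 of 3 litters. Apoa5, of the same gene cluster, had 4715, 4514 and 4607 RPF in WT and 5185, 3791 and 3482 in KO, a change of -0.17 ± 0.14. The interval of Apoa5 was -0.47 to 0.12 and, unlike that of Apoc3, held the value of Apob. The Apoa5 change was -0.34 without KO mouse 1 (adjusted p = 0.138, limma) and -0.06 without KO mouse 3 (adjusted p = 0.960, limma).

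Apoc1 RPF, at 11794, 16524 and 15370.0 in WT and 15121, 14185 and 12050.0 in KO, overlapped throughout, with a change of -0.07 ± 0.15. Apom RPF were 2182, 1602 and 1910 in WT and 1980, 1339 and 1630 in KO, lower in KO in 3 of 3 litters but overlapping, with a change of -0.21 ± 0.24. Over the 10 members, KO lay below WT without overlap in 1 of 10 in input (Apob), beside 5.6% of genes, and in 3 of 10 in RPF (Apob, Apoh and Apoa4), beside 12.9% of genes. RPF were lower in KO in 3 of 3 litters for 5 of 10 members (Apob, Apoh, Apoa2, Apoa4 and Apom), beside 23.8% of genes, and input for 3 of 10 (Apob, Apoa4 and Apoc3), beside 14.8%.

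Among the KO mice, mouse 1 had the highest RPF to input ratio for 10 of 10 members, beside 37.6% of genes. Apoe had ratios of 3.05, 2.08 and 1.77 in KO mice 1 to 3 and of 2.12, 2.19 and 2.23 in WT, and Apoh 4.86, 3.43 and 2.90 in KO. In WT the highest ratio was in mouse 1 for 5 members, in mouse 2 for 1 and in mouse 3 for 4. KO input library 1 also had the most counts, 11825643, and the lowest share of 18S rRNA, 45.8%, beside 59.1% to 63.8% in the other 5, and the part of this in the ratios was not tested. The 10 values come from the same pair of libraries and are not independent.

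The RPF changes of genes at large rose with the GC content of their CDS. Spearman's rho between CDS GC content and RPF change was 0.44 over the 10 members and 0.46 over 8986 genes, a description across genes that share the same libraries. The value of the members was not tested, and 10 genes are too few to show a trend of their own. The 510 genes within 1 percentage point of the GC content of Apob had a median RPF change of -0.25, and the 260 genes around that of Apoe had 0.27. After a correction of each library for CDS GC content, Apob was at -0.17 (adjusted p = 0.731, limma), Apoh at -0.31 (adjusted p = 0.446, limma) and Apoe at -0.24 (adjusted p = 0.723, limma). Apoa5 moved from -0.17 to -0.38 and Apoa4 to -1.13, so that 10 of 10 members lay below 0 after the correction and 7 of 10 before it, beside 52.7% and 54.0% of all genes, and no member was called. The median of the members was -0.25 after the correction, beside -0.02 over all genes. With the litter block and a correction for GC content and length together, Apob was at -0.29 with an adjusted p of 0.221 (limma), so its call under the litter block did not remain.

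**Figure D4:**
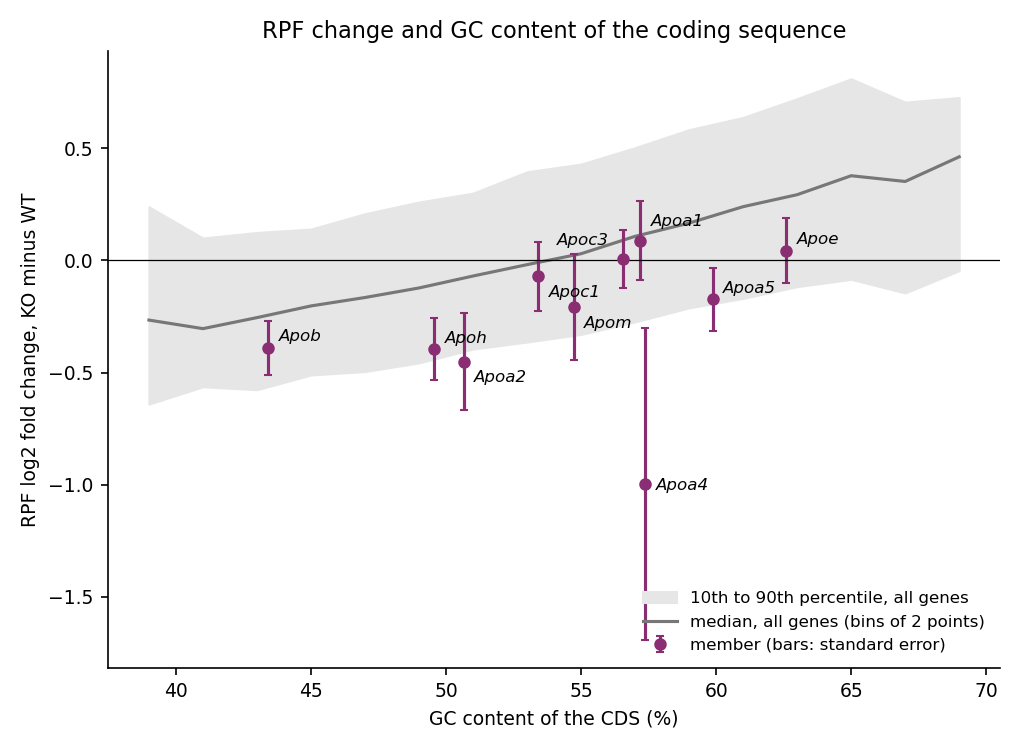
RPF log2 fold change (KO minus WT, bars: standard error) of the 10 members against the GC content of their CDS, over the median (line) and the 10th to 90th percentile (grey) of all genes in bins of 2 percentage points. Apob, at 43.4% GC and -0.39, has the lowest GC content, and Apoe, at 62.6% and 0.04, lies under the median of genes of like GC content.

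The summed RPF of the 5 stellate cell markers in the table were 1714 to 1966 in WT and 2361 to 2737 in KO without overlap, as their 6 markers in input had 940 to 1058 in WT and 1086 to 1207 in KO. The erythroid sum, of 5 markers in input, was 626 to 810 in WT and 540 to 606 in KO without overlap, and that of 4 markers in RPF was 965 to 1673 in WT and 784 to 1213 in KO. Hepatocyte marker sums in RPF were 617466 to 994890 in WT and 556176 to 790063 in KO. Kupffer cell, endothelial and cholangiocyte sums overlapped between the genotypes in both assays. The part of these in the values of apolipoproteins was not tested. Among genes taken singly, 5.6% were lower in KO without overlap in input and 12.9% in RPF. The share of genes higher in KO without overlap is not reported here. The sums were not split by marker, so separation in a sum may come from few markers.

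The pattern over the 12 libraries, after removal of each assay's mean, was compared with the mean of the 10 members. The 5 other genes most like it were B2m (Pearson r = 0.96), Fetub (0.95), Hsd11b1 (0.94), Nfu1 (0.93) and Csnk2b (0.92), given as a description with no test. Among the members, Apoa2 (0.93) and Apoa4 (0.87) followed the mean most closely and Apoc1 (0.10) least. That mean was not scaled and includes each member, so these r are in part built in. Members of wide spread, such as Apoa4, weigh more in it. The closest pair was Apoa2 and Apoa4 (0.91), both highest in WT mouse 1, followed by Apoh and Apob (0.79). The 7 pairs on a shared chromosome had a median r of 0.18 and the 38 other pairs 0.42.

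Of 12 further apolipoprotein genes, 8 were tested in RPF and none was called in input (edgeR), RPF or TE (limma). Those at an unadjusted p under 0.05 numbered 2, 3 and 0, beside 3.46%, 13.4% and 4.70% of all genes. The smallest p was that of Apol9a, an interferon-inducible member of the ApoL family. It had 22.7, 27.3 and 21.7 RPF in WT and 9.73, 7.99 and 10.5 in KO, without overlap, and a change of -1.26 ± 0.28 (adjusted p = 0.05004, limma). The KO RPF values rested on 14, 13 and 11 reads. Its input was 49.5, 59.6 and 74.7 in WT and 27.0, 22.6 and 22.4 in KO, also without overlap. The input change, -1.31 ± 0.27 (adjusted p = 0.513, edgeR), was of like size. The adjusted p of the RPF change ranged from 0.0227 with the litter block to 0.257 without WT mouse 2 (limma), and Apol9a was called in 5 of 15 alternatives. With GC and length correction added to the litter block it was called (adjusted p = 0.0301, limma). It was not called after the GC correction alone (0.0606), from RPF columns alone (0.123) or when any mouse other than KO mouse 1 was left out (0.108 to 0.257, adjusted p, limma). Its near-identical paralog Apol9b had an RPF change of -0.73 ± 0.20 (adjusted p = 0.0972, limma), called only with the litter block (0.0455) and no longer with GC and length correction added (0.0553). The input change of Apol9b was -0.66 ± 0.22 (adjusted p = 0.9986, edgeR). Since reads that map to both genes were dropped, neither level is certain. At baseline, Apof (1.69), Clu (1.53), Apon (1.31) and Apoc4 (1.10) were called higher among these 8 and 2 were called lower, beside 35.4% and 23.1% of all genes, with a median of 0.59 (log2).

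Of 19 genes for the assembly and secretion of lipoproteins, 17 were tested in RPF, and none was called in input (edgeR), RPF or TE (limma). Those at an unadjusted p under 0.05 numbered 1, 4 and 1, beside 3.46%, 13.4% and 4.70% of all genes. The median RPF change was -0.19. Vmp1, an endoplasmic reticulum protein needed for lipoprotein release, had 477, 323 and 380 RPF in WT and 268, 237 and 220 in KO, without overlap, and a change of -0.69 ± 0.16 (adjusted p = 0.0585, limma). Its input was 317, 263 and 320 in WT and 245, 206 and 243 in KO, also without overlap. The input change was -0.35 ± 0.15 (adjusted p = 0.9986, edgeR). For the RPF change of Vmp1 the adjusted p was 0.0075 with the litter block, 0.0583 with GC and length correction added and 0.221 after the GC correction alone, and it passed in 3 of 16 alternatives. The chaperone Hspa5 had -0.45 ± 0.13 (adjusted p = 0.129, limma), and passed in 1 of 16, the litter block (0.0407), but not with GC and length correction added (-0.33, adjusted p = 0.196, limma). At baseline TE, 11 of the 17 were called higher and none lower, beside 35.4% and 23.1% of all genes, led by the chaperones Pdia3 (1.72) and Canx (1.48) and by Sar1b (1.61), the GTPase of the vesicles that carry lipoproteins out of the endoplasmic reticulum.

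Of 16 genes of lipoprotein remodelling, all 16 were tested and none was called in input (edgeR), RPF or TE (limma). Those at an unadjusted p under 0.05 numbered 0, 3 and 1, beside 3.46%, 13.4% and 4.70% of all genes. Pla2g12b, which takes part in the lipidation of apolipoprotein B, had an RPF change of 0.54 ± 0.17 (adjusted p = 0.15, limma), with 0.0415 under the litter block and 0.127 with GC and length correction added, and Lcat, which esterifies cholesterol on high density lipoprotein, 0.31 ± 0.13 (adjusted p = 0.302, limma). Baseline TE was called higher for 9, among them Pon1 (1.91) and Gpld1 (1.47), and lower for 1, beside 35.4% and 23.1% of all genes.

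Of 16 genes of lipoprotein uptake, 15 were tested in RPF and 1 was called, beside 0.489% of all genes, and none was called in input (edgeR) or TE (limma). Those at an unadjusted p under 0.05 numbered 1 in each of input, RPF and TE, beside 3.46%, 13.4% and 4.70% of all genes. Sdc1, the heparan sulfate proteoglycan by which hepatocytes clear remnants, had 622, 680 and 804 RPF in WT and 975, 1138 and 1357 in KO, without overlap. How many genes were higher in KO without overlap is not reported here. Sdc1 RPF rose by 0.71 ± 0.15 (log2, adjusted p = 0.0373, limma), while Sdc1 input was 497, 577 and 555 in WT and 502, 589 and 644 in KO. The call was lost when any of the 5 mice other than KO mouse 1 was left out (adjusted p = 0.0788 to 0.228, limma). It was also lost after the GC correction alone (0.51, adjusted p = 0.143, limma) and from RPF columns alone (adjusted p = 0.0945, limma). With the litter block it was kept (adjusted p = 0.00155, limma), also with GC and length correction added (0.54, adjusted p = 0.0228, limma). Sdc1 passed in 9 of 16 alternatives. The TE change of Sdc1, 0.63 ± 0.21, was not called (adjusted p = 0.998, limma). At baseline, 5 of the 15 were called higher and 3 lower, shares near those of all genes (35.4% and 23.1%).

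Of 21 regulators of apolipoprotein genes and of Apob editing, all were tested and none was called in input (edgeR), RPF or TE (limma). Those at an unadjusted p under 0.05 numbered 0, 2 and 0, beside 3.46%, 13.4% and 4.70% of all genes. The smallest p in RPF were those of Nr1h2, the liver X receptor beta (0.59 ± 0.24, adjusted p = 0.289, limma), and Syncrip, an RNA-binding protein (-0.38 ± 0.17, adjusted p = 0.351, limma). Apobec1, the deaminase that edits Apob, had 75.2, 108 and 59.0 normalized input reads in WT and 58.5, 54.5 and 73.6 in KO, and A1cf, its RNA-binding cofactor, 712, 740 and 695 against 764, 675 and 529, each overlapping. At baseline TE, 4 of these 21 genes were called higher and 10 lower, beside 35.4% and 23.1% of all genes, and their median was -0.36 (log2) beside 0.22 over all genes.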

How the data were processed

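Livers of 3 WT and 3 Mettl5 KO mice gave 6 input and 6 RPF libraries. The authors aligned paired input reads to mm10 with STAR 2.7.3a and counted uniquely mapped read pairs over exons with strand (featureCounts, 1.6.0 per the labels), so genes that overlap a member on the other strand were told apart, and these deposited values are whole counts. For RPF, the authors removed rRNA reads and mapped first reads with RiboToolkit to a single location. Whether RPF were counted over the CDS or the whole transcript is not given in the sources used here. The signal in the deposited TE table is reads divided by 1 factor per library: whole reads could be recovered (within 0.001) for 100% of values, and those of input equalled the counts in 100% of genes. The authors' log2 fold change, p-value and adjusted p-value columns hold their own comparison and were not used. Every column of sample values had a sample.

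Input was tested on counts with edgeR 4.0.16 in R 4.3.3 (TMM, filterByExpr, robust quasi-likelihood test). For standard errors, the size of the log2 change was divided by the root of F. For RPF and TE, limma 3.58.1 (trend and robust) was run on log2(value + 1), keeping genes whose mean reached 10 in both assays, with 4 group means over 12 libraries and TE as the interaction, so fold changes are on the log2(value + 1) scale. Baseline TE was the WT contrast of RPF and input after centring each library on its median. All p-values are two-sided and Benjamini-Hochberg adjusted over all genes tested, with a threshold of 0.05. Every p is set against the spread between libraries of these mice. The main limma fit treated the 12 libraries as independent, so input and RPF of the same mouse were not paired. Its p-values for RPF and baseline TE thus rest on spread pooled over both assays and both genotypes. They do not measure the spread between mice of the compared quantity alone. The scripts were tested on simulated data. DESeq2 1.42.0 was an alternative. Labels give littermates the same number. Deviations of littermates from their group means correlated at 0.08 to 0.13 in input and 0.14 to 0.24 in RPF, and those of other WT and KO mice at -0.24 to 0.08, so the litter was used as a block in an alternative. For RPF, the litter term was shared by input and RPF in the fit of all 12 libraries. It was thus not a paired test of RPF alone between littermates. CDS, lengths and sequences come from GENCODE vM21 (GRCm38, the same assembly as mm10), using the principal transcript. The members and lists were chosen with earlier results of these data known. All 10 members were named in every comparison. From each further list, genes past the threshold were named, or else the 2 with the smallest p in RPF. At baseline TE, the genes named are examples among those past the threshold, and some list genes are not reported here. Apobec1 and A1cf were added for their role after their values were seen.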

Additional observations from a re-analysis of the deposited data

How the results depend on the processing

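Most alternatives changed 1 choice at a time. Joined choices were the replicate block with GC and length correction, the replicate block with TE per mouse, and the shortened Apob CDS with values per kb. At baseline TE, edgeR on whole reads was also centred on the median TE. Of 987 alternative values over 68 results, 888 moved neither across 0 nor across the threshold, or, for counts, stayed within 1.5 times the main count, and the cause of the other changes was not tested unless the setting itself gives it. No member was called in TE under any alternative, or in input under any alternative. In RPF, 1 member was called with the replicate block (Apob) and 0 to 1 when a mouse was left out (Apoh, without KO mouse 1), and the replicate block changed no other call of a member except that of Apoa4 at baseline TE. At baseline TE, 9 to 10 members were called when a WT mouse was left out. Over all genes, RPF calls numbered 44, but 293 with the replicate block, 10 after the CDS GC correction, 85 with both and CDS length, 23 from RPF columns alone and 0 to 226 when a mouse was left out (0 without KO mouse 2, 226 without KO mouse 1), whereas input calls rose from 0 to 30 without a count filter and to 0 to 21 when a mouse was left out.

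Directions that turned belonged to values that were not called, apart from Apob, Apoa1 and Apoa5 at baseline TE. In input, Apoa1 (0.00084) turned to -0.00176 in DESeq2, -0.00175 with RLE size factors and -0.0156 in limma on the normalized table. In RPF after the CDS GC correction, Apoa1 was at -0.0403, Apoc3 at -0.104 and Apoe at -0.241, and with the replicate block and a correction for GC and length at -0.00737, -0.0716 and -0.22. In TE after the GC correction, Apob was at 0.0126, Apoa1 at -0.0146, Apoa4 at -0.117 and Apoe at -0.216, and Apoa4 was at -0.00533 with centred columns and at -0.173 in edgeR on whole reads. At baseline TE per kb of CDS and of exon, Apob was at -0.866, Apoa1 at -0.485, Apoa4 at -0.169 and Apoa5 at -0.025, and per kb of transcript, chosen after seeing the data, Apob was at -0.246 and Apoa1 at -0.121. These follow from the lengths that enter the ratio.

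When each mouse was left out in turn, the ranges that crossed 0 were as follows. In input, Apoa1 ranged from -0.141 to 0.178, Apoa5 from -0.0715 to 0.000271, Apoc1 from -0.00341 to 0.228, Apoe from -0.0754 to 0.107, Apoh from -0.118 to 0.0137 and Apom from -0.28 to 0.221. In RPF, Apoa1 ranged from -0.01998 to 0.227, Apoc1 from -0.216 to 0.0276, Apoc3 from -0.0594 to 0.117 and Apoe from -0.101 to 0.128. In TE, Apoa1 ranged from -0.0809 to 0.237, Apoa4 from -0.161 to 0.174, Apoc1 from -0.347 to 0.064, Apoe from -0.183 to 0.209 and Apom from -0.335 to 0.0781.

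Of the other apolipoproteins, 1 was called in input without a count filter. In RPF, 1 was called in edgeR on whole reads, with a pseudocount of 0.1 and with the replicate block and GC and length correction, 2 with the replicate block and 0 to 2 when a mouse was left out. For assembly and secretion, 1 was called in RPF at a mean of at least 50, 2 with the replicate block, 0 with the replicate block and GC and length correction, and 0 to 1 when a mouse was left out. For remodelling, 2 were called in RPF with the replicate block and 0 with GC and length correction added, and at baseline TE 6 at a mean of at least 50 and 6 to 8 when a WT mouse was left out, instead of 10. For uptake, 0 were called in RPF after the GC correction, in RPF columns alone and 0 to 1 when a mouse was left out. Uptake genes called in input numbered 0 to 1 when a mouse was left out, and at baseline TE 4 when centred on the median TE and in edgeR on whole reads, 2 at a mean of at least 50 and 5 to 8 when a WT mouse was left out, instead of 8. Of the regulators, 0 to 1 were called in RPF when a mouse was left out. With 3 mice a group, 95% intervals of RPF change spanned 0.5 (log2) or more for every member. That of Apoa4 ran from -2.59 to 0.60, and its change of -0.996 was not called. Intervals of TE change were wider than those of RPF change for every member. Small changes, and for members of wide spread also large ones, could be missed.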
